A study of Homo sapiens with 4 samples.

Results

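The rows described here are the gene rows of a footprint count table that lie on the short arm of chromosome 19, on either side of a stretch from ATP5F1D to CHAF1A. They were chosen by position alone: rows that end before the start of ATP5F1D (position 1241746), or that start after CHAF1A (from 4443398) and no later than position 7200000. Positions are on GRCh38, as the table gives them. This gave 244 of the 78724 rows, 102 on the side of the telomere and 142 on the side of the centromere, and 102 of the 244 took the symbol of a protein-coding gene. Ribosome-protected fragments (footprints) were counted in A375 cells, an established human melanoma line, after 48 h in control medium or in medium made without L-arginine, with 2 libraries per group. The labels describe an arginine-free medium built from RPMI 1640 without amino acids and growth in DMEM with 10% fetal bovine serum, and do not say which base the control medium had. The labels do not state whether the libraries of a group came from separate cultures. The p-values therefore measure library-to-library spread alone, and that spread may be technical.

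Ribosome profiling counts the short pieces of RNA that a ribosome shields from nuclease, so a count reflects both how much mRNA there is and how many ribosomes it carries. The series' Ribo-seq counts were analysed without matched RNA-seq, so more mRNA and more ribosomes per mRNA cannot be told apart. The short arm of chromosome 19 is dense in genes, and the flanks hold genes of many unrelated roles. Among them are basigin (BSG), a chaperone of lactate carriers, the ribosomal protein RPL36, splicing regulators, parts of RNA polymerase II, mitochondrial proteases and the insulin receptor.

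Certain sequences are shown first because they belong to the genes whose footprints moved or to a neighbour of one. RefSeq promoter windows of GRCh38.p14 run from 250 bases before to 50 after an annotated start, and 48 of the 53 tested rows had at least 1, giving 69 windows. Messenger RNAs of ribosomal proteins are known to begin with a run of pyrimidines through which their translation is controlled. A run of at least 5 pyrimidines from the annotated start was present in 4 of the 69 windows (5.8%) and in 5.17% of all 35116 windows. Of these 4, 3 belong to rows that passed the test described below, RPL36 and GTF2F1 (higher) and ALKBH7 (lower). The fourth belongs to WDR18, a row that did not pass and that begins after its window. In the flanks 20.8% of tested rows passed, and 26.7% of all tested rows did. Whether the run goes with a call was not tested, and 4 windows are few. The following 3 lines give 20 bases before and 20 after each start, 5′ to 3′ on the gene's strand, with the pyrimidines from the start in capitals.
RPL36 (chr19:5690275-5690314, plus strand): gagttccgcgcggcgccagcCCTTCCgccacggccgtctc
GTF2F1 (chr19:6393145-6393184, minus strand): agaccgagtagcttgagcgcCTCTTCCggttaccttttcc
ALKBH7 (chr19:6372774-6372813, plus strand): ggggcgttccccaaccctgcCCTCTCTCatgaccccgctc
The run was 6 bases long in RPL36, 7 in GTF2F1 and 8 in ALKBH7, so it stood at rows that moved in opposite directions.

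SAFB2 and SAFB are related genes that start back to back, with 306 bases between their rows, and their promoter windows share 194 bases. TUBB4A, the row with the lowest log2 fold change, has 2 annotated starts. The next 3 lines give the shared stretch and the 120 bases before each TUBB4A start, with CG pairs in capitals, because CG-rich promoters are typical of broadly used genes.
SAFB2 and SAFB, shared stretch (chr19:5622833-5623026, written on the plus strand, the strand of SAFB): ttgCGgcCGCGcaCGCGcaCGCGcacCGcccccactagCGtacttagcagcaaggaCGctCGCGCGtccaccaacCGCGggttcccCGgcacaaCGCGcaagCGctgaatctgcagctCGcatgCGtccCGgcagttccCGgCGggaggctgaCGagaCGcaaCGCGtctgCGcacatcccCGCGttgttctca
TUBB4A, start farther from the gene body (chr19:6502849-6502968, minus strand): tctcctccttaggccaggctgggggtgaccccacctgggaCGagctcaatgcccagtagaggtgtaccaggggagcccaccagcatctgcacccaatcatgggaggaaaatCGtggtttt
TUBB4A, inner start (chr19:6502310-6502429, minus strand): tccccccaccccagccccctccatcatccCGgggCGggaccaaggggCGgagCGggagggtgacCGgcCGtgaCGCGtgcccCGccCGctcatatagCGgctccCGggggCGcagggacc
The shared stretch of SAFB2 and SAFB held 31 CG pairs. In the full windows of 300 bases, the outer TUBB4A start had 5 CG pairs and the inner start had 27, while the median was 32 over the 69 windows of the tested rows and 14 over all 35116. The letters TGATGNAA, searched on both strands as the core of the element bound by the amino acid stress factor ATF4, were in none of the 69 windows and in 3.62% of all windows.

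Reads were counted over exons without strand. GRCh37 is named in the submitters' processing notes, whereas positions in the count file are those of GRCh38, and the flanks were chosen where the numbering of the builds is nearly the same. Of the 102 protein-coding rows of the flanks, 27 (26.5%) held no read in any library and 52 (51%) held 20 or more. Among nuclear rows elsewhere, 72.4% of 18299 protein-coding rows held no read and 11.1% held 20 or more, and in the stretch from ATP5F1D to CHAF1A the shares were 15.2% and 57.6%. On the telomere side 20% of protein-coding rows were at 0 and 52.5% held 20 or more reads, and on the centromere side 30.6% and 50%, a difference that was not tested. Of 4 neutrophil granule genes, AZU1, PRTN3 and ELANE were at 0 and CFD had 11 reads, and the T cell signalling gene VAV1, the fucosyltransferases FUT5 and FUT6 and the 5 rows of the MBD3L family were also at 0. A row at 0 allows up to 3 reads, which is 12.8 CPM of all reads in the deepest library and 28.6 CPM in the shallowest.

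**Figure D1:**
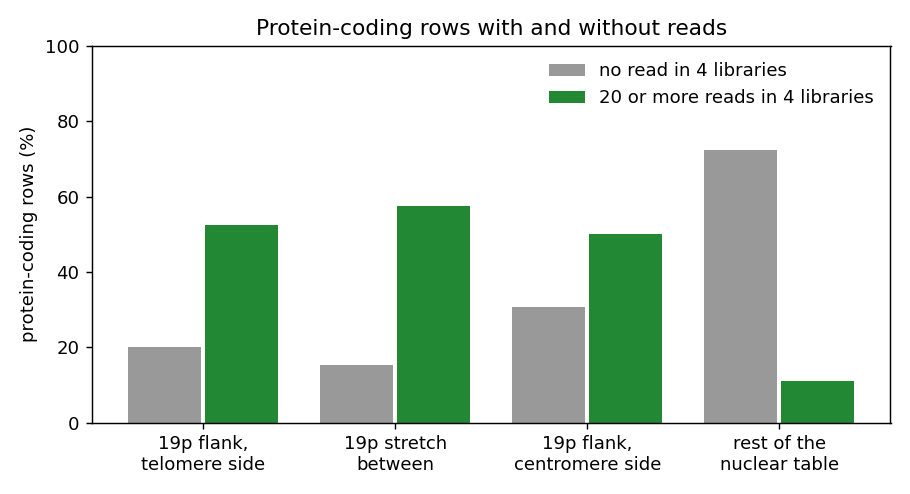
Share of protein-coding rows (percent, bars) with no read and with 20 or more reads over the 4 libraries, for both chromosome 19p flanks, the stretch between them and the rest of the nuclear table. In the flanks 20% and 30.6% of rows are without reads, against 72.4% in the rest of the nuclear table.

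Total counts were 105004 and 217989 in the control libraries and 234766 and 192006 in the arginine-free ones, of which the flanks took 22479 reads. Mean flank shares of all reads were 3.08% ± 0.53 for control libraries and 3.03% ± 0.0566 for arginine-free ones (SD, n = 2 per group), so their total did not shift beyond the spread between libraries. Control replicate 2 had 20.2% of its reads on the row of the mitochondrial valine tRNA, and the other libraries had 8.68% to 10.3%. Of the melanocytic marker list, in parts of the table that can be read, MFSD12 had 1215 reads, AP3D1 641, TYRP1 42, MLANA 18 and SLC45A2 2. The 5 genes of this list together had 534 and 779 reads in control and 314 and 291 in arginine-free medium. Most of these reads came from MFSD12 (370 and 511 against 175 and 159) and AP3D1 (142 and 231 against 138 and 130). TYRP1 had 16 and 25 reads in control and 1 and 0 in arginine-free medium. For MLANA the reads were 6 and 10 against 0 and 2, and for SLC45A2 0 and 2 against 0 and 0. The part of this fall in raw reads in the results below was not tested. Of the marker genes of other cells that lie in the flanks, 14 of 16 had fewer than 20 reads. The exceptions were CD70 and the tubulin gene TUBB4A. The neuron list (HCN2, GRIN3B, TUBB4A and PLPPR3) summed to 67 and 110 reads in control and 13 and 12 in arginine-free medium. Nearly all of these reads came from TUBB4A. The leukocyte list, of which VAV1 and TNFSF14 were at 0, summed to 34 and 47 against 61 and 45. Of these, CD70 alone held 32 and 46 in control and 51 and 36 in arginine-free medium. The neutrophil list summed to 1 and 4 against 2 and 4, and the liver list (C3 and LRG1) to 6 and 9 against 1 and 2.

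Reads were concentrated on few genes. BSG, also called CD147 and known to escort the lactate carriers to the cell surface, held 18.6% of the flank reads, BSG and RPL36 together 34.2%, and the 10 rows with the most reads 65.8%. Per kilobase of exon, BSG had 2642 CPM and RPL36 1960 CPM in control medium (group means). In arginine-free medium the order was turned, with 4916 CPM per kb for RPL36 and 2084 for BSG. The RPL36 row is longer than its RefSeq gene and holds 1398 bases of exon. Its value per kb, and so its order with BSG, depends on that length. CPM here are reads per 1000000 on the tested rows, scaled by TMM factors. PTBP1, a splicing regulator, MYDGF, a secreted growth factor, and MICOS13, of the mitochondrial inner membrane, came next, with group means of 690, 624 and 623 CPM per kb in control medium. PTBP1, MYDGF and MICOS13 differed little in control medium, and their order was not tested. The lowest tested row per kb was STK11, the kinase LKB1, at a mean of 6.24 CPM per kb over the 4 libraries. It held 28 reads in all. The STK11 row is also longer than its RefSeq gene, so this rank depends on the row's length.

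**Figure D2:**
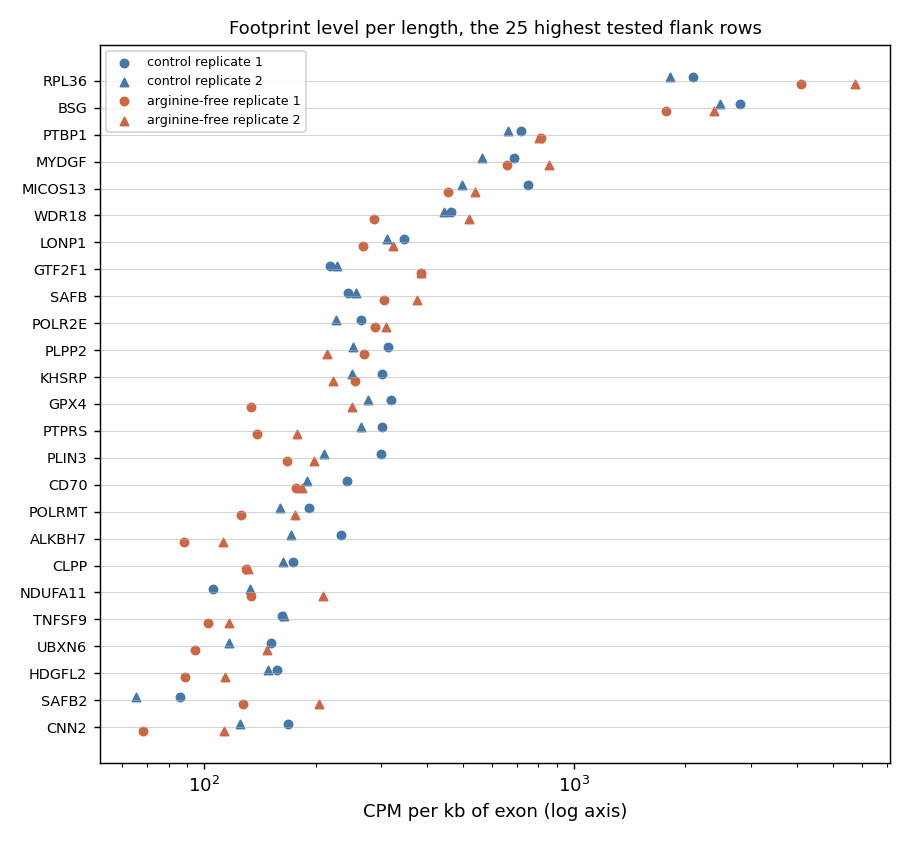
Footprint level in CPM per kb of exon (log axis) in each library for the 25 highest of the 53 tested flank rows, ordered by the mean of the 4 libraries. RPL36 in arginine-free medium is the highest group, at a mean of 4916 CPM per kb, and BSG leads in control medium at 2642. The RPL36 row is longer than its RefSeq gene, so its values per kb depend on the row's length.

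The main question of the design was how footprints differ after 48 h without arginine. Rows with 20 or more reads in all were tested with edgeR's quasi-likelihood test over the whole table, 3334 rows, and p-values were adjusted by Benjamini-Hochberg, with calls at 0.05. In the flanks 53 rows were tested, 52 of them protein-coding, and 5 rose, 6 fell and 42 did not pass. Of all 3334 tested rows 13% were higher and 13.7% lower, 26.7% in all, and in the flanks 9.43% were higher and 11.3% lower, 20.8% in all. The share of called rows in the flanks was thus not above that of the whole table, and the difference was not tested. Depth differed between these sets, with a median of 196 reads per tested flank row and 58 over all tested rows. The median SE was 0.30 in the flanks and 0.46 over all tested rows. The median log2 fold change (arginine-free minus control) was -0.12 over the 52 protein-coding rows and -0.02 over all tested rows. It was 0.11 without arginine-free replicate 1. The telomere side had 1 higher and 2 lower of 21 rows, the centromere side 4 higher and 4 lower of 32, and the stretch between them 12 higher and 10 lower of 61. The number of calls rested on the libraries: without control replicate 2 edgeR called 0 higher (5 at an unadjusted p under 0.05) and 3 lower, and without control replicate 1 it called 1 of each. Without arginine-free replicate 2 the higher rows numbered 3 and the lower 5. With all libraries 15 of the 53 flank rows had an unadjusted edgeR p under 0.05, against 1262 of all 3334 tested rows. DESeq2 called 1 higher and 4 lower in the flanks, and 181 and 184 of all tested rows. The fit with the replicate number as a block called 2 and 3 in the flanks, and 263 and 298 of all tested rows.

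**Figure D3:**
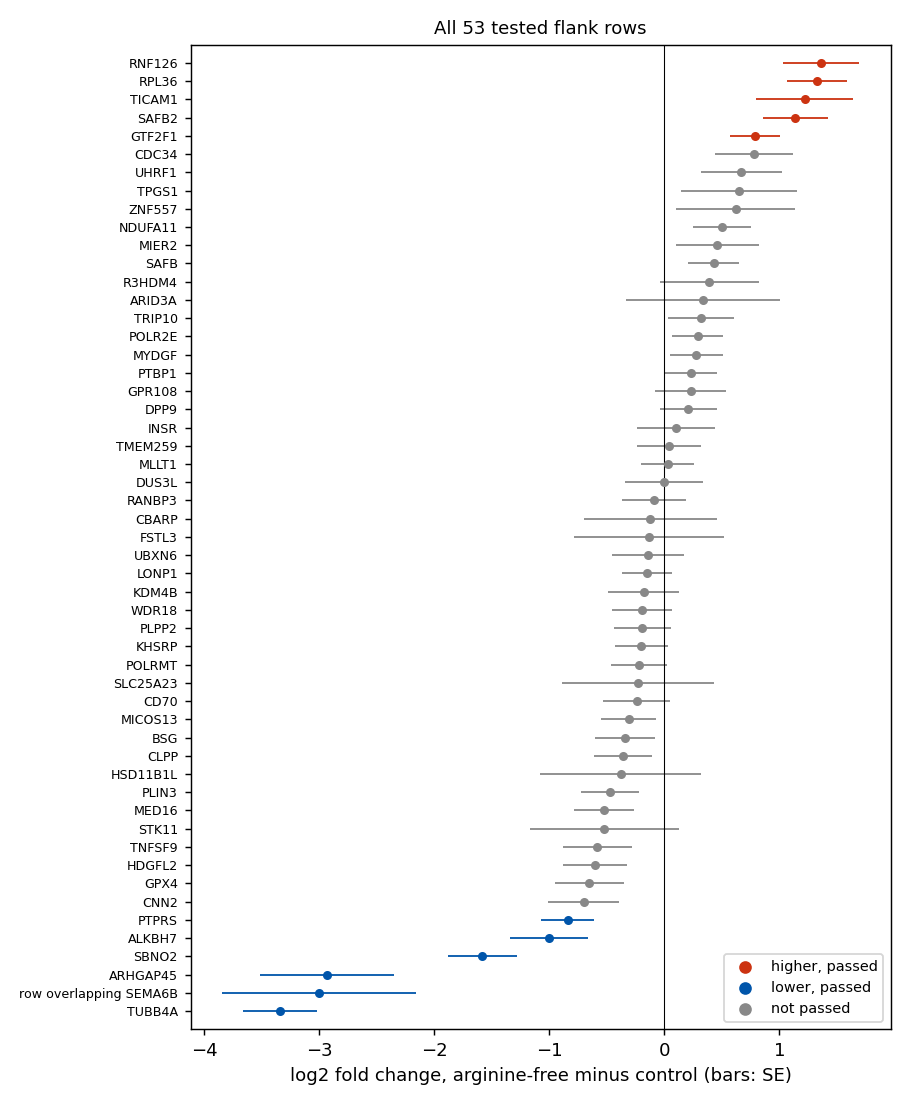
Fitted log2 fold change, arginine-free minus control, for each of the 53 tested flank rows (points) with its standard error (bars), ordered by size and coloured by the edgeR call. Most rows lie near 0, 5 are higher past the threshold, and the 3 lowest lie at or under -2.93.

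The largest fall was in TUBB4A, a beta-tubulin of neurons and of myelinating cells (chr19:6494319-6502844). It had 595 and 540 CPM in control medium and 50.2 and 61.4 CPM in arginine-free medium. Both arginine-free libraries lay far below both controls. The row was 10.2-fold lower (edgeR adjusted p = 7.93e-08), at -3.34 on the log2 scale with an SE of 0.32, and it passed in each of the 12 alternatives, at -3.46 to -3.16. Beta-tubulin genes are near-identical in their coding parts, so reads of this row may have come from, or been lost to, another tubulin gene, and its level is uncertain. The other 3 genes of the neuron list summed to 2 and 1 reads in control and 1 and 2 in arginine-free medium.

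ARHGAP45, a gene best known from blood cells (chr19:1065923-1086628), also fell, and it was named after its values were seen. It had 22 and 19 reads in control and 3 and 4 in arginine-free medium, or 201 and 94.1 against 12.6 and 24.6 CPM. The groups did not overlap, though control replicate 1 was far above control replicate 2. The log2 fold change was -2.93 (SE 0.58, edgeR adjusted p = 0.000714), and the call ended without control replicate 1 (adjusted p = 0.066) and without arginine-free replicate 2 (adjusted p = 0.0595). The end of ARHGAP45 overlaps that of POLR2E on the other strand, and POLR2E did not pass.

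A row that overlaps SEMA6B, a gene of the semaphorin guidance proteins, fell as well (ENSG00000167680.18, chr19:4542588-4581776, named after its values were seen). It took no symbol because it shares neither end with the RefSeq gene. It had 5 and 16 reads in control and 0 and 3 in arginine-free medium. The fitted value of -3.00 on the log2 scale (SE 0.84, edgeR adjusted p = 0.0112) rests on few reads. It was -6.61 without arginine-free replicate 2, and leaving out the other arginine-free library gave -1.79. The call ended without arginine-free replicate 1 and with the replicate number as a block (edgeR adjusted p = 0.0627). The row had enough reads to be fitted in 8 alternatives, among them DESeq2, which gave it no adjusted p.

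SBNO2, a transcriptional coregulator induced by interleukin 10 in myeloid cells (chr19:1107637-1174268), had 586 and 436 CPM in control and 130 and 215 CPM in arginine-free medium. Its groups were well apart, 511 ± 106 and 172 ± 60.3 CPM (SD, n = 2 each). The row was 2.98-fold lower (log2 fold change -1.58, SE 0.30, edgeR adjusted p = 0.000409). Without control replicate 1 it did not pass (adjusted p = 0.0573).

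PTPRS, a receptor tyrosine phosphatase that binds proteoglycans (chr19:5205508-5340812), was the most heavily covered of the rows that fell, with 1157 reads. It went from 2351 and 2061 CPM to 1080 and 1388 CPM. The fall was 1.79-fold (log2 fold change -0.84, SE 0.23, edgeR adjusted p = 0.0106), and both arginine-free libraries were below both controls. It did not pass without control replicate 1 (adjusted p = 0.135), without control replicate 2 (adjusted p = 0.0542) or with the replicate block (adjusted p = 0.0785). ALKBH7, a mitochondrial dioxygenase with a role in programmed necrosis (chr19:6372794-6375250), had 256 and 188 CPM in control and 96.3 and 123 CPM in arginine-free medium. The row was 2-fold lower (SE 0.34 on the log2 scale, edgeR adjusted p = 0.0334), and the call ended in 7 of the 12 alternatives, DESeq2 among them (adjusted p = 0.243) and each of the 4 that left out a library (0.0597 to 0.197).

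Of the rows that rose, RPL36 held by far the most reads. RPL36 is a protein of the large ribosomal subunit (row chr19:5674947-5691875, of which the RefSeq gene is the last part). It had 2937 and 2542 CPM in control and 5726 and 8018 CPM in arginine-free medium. Even the lower arginine-free library stood well above both controls. The rise was 2.51-fold (log2 fold change 1.33, SE 0.26, edgeR adjusted p = 0.000568) and ranged from 1.10 to 1.57 on the log2 scale over the alternatives. Without control replicate 2 the adjusted p was 0.0502. The row also spans MICOS13, HSD11B1L and the end of LONP1, none of which passed, and ribosomal protein genes have many processed copies elsewhere, so its level is uncertain.

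RNF126, a ubiquitin ligase that acts with the chaperone BAG6 on mislocalised proteins (chr19:647526-663214), had 101 and 109 CPM in control and 247 and 301 CPM in arginine-free medium. It rose 2.57-fold (log2 fold change 1.36, SE 0.33, edgeR adjusted p = 0.00395), with no overlap between the groups. The call ended with DESeq2 (adjusted p = 0.0574) and without either control library (0.0803 and 0.0699).

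SAFB2, a scaffold attachment factor that binds RNA and chromatin (chr19:5586981-5622776), went from 274 and 208 CPM to 406 and 651 CPM. Its log2 fold change was 1.14 (SE 0.28, edgeR adjusted p = 0.00484). SAFB, its relative on the other side of the shared promoter printed above (chr19:5623083-5668478), had 750 and 788 CPM in control and 938 and 1149 CPM in arginine-free medium. All of its arginine-free values were above its controls, yet at 0.43 on the log2 scale (SE 0.22, edgeR adjusted p = 0.163) it did not pass. Whether SAFB2 changed more than SAFB was not tested, and the pair are similar enough in sequence that reads could be shared between them. The SAFB2 call ended in 5 alternatives, DESeq2 (adjusted p = 0.0507), the replicate block (0.0515) and 3 that left out a library (0.0787 to 0.172). SAFB passed without arginine-free replicate 1 (adjusted p = 0.0387). Of the other pairs of tested rows that start back to back within 1000 bases, MICOS13 and HSD11B1L, and GPR108 and TRIP10, no member passed.

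GTF2F1, the larger subunit of the general transcription factor TFIIF (chr19:6379572-6393164), rose with little spread, from 531 and 555 CPM to 938 and 940 CPM. Its log2 fold change was 0.79 (SE 0.22, edgeR adjusted p = 0.0116), and it did not pass with DESeq2 (adjusted p = 0.0846), without either control library (0.148 and 0.143) or with the replicate block (0.0651). TICAM1, the adaptor TRIF of Toll-like receptor 3 (chr19:4815932-4831712, named after its values were seen), had 101 and 44.6 CPM in control and 176 and 129 CPM in arginine-free medium. It passed narrowly, with 1.22 on the log2 scale (SE 0.42, edgeR adjusted p = 0.0366), and its call ended in 7 of the 12 alternatives, among them DESeq2 (adjusted p = 0.274). Without control replicate 2 its log2 fold change was 0.57.

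**Figure D4:**
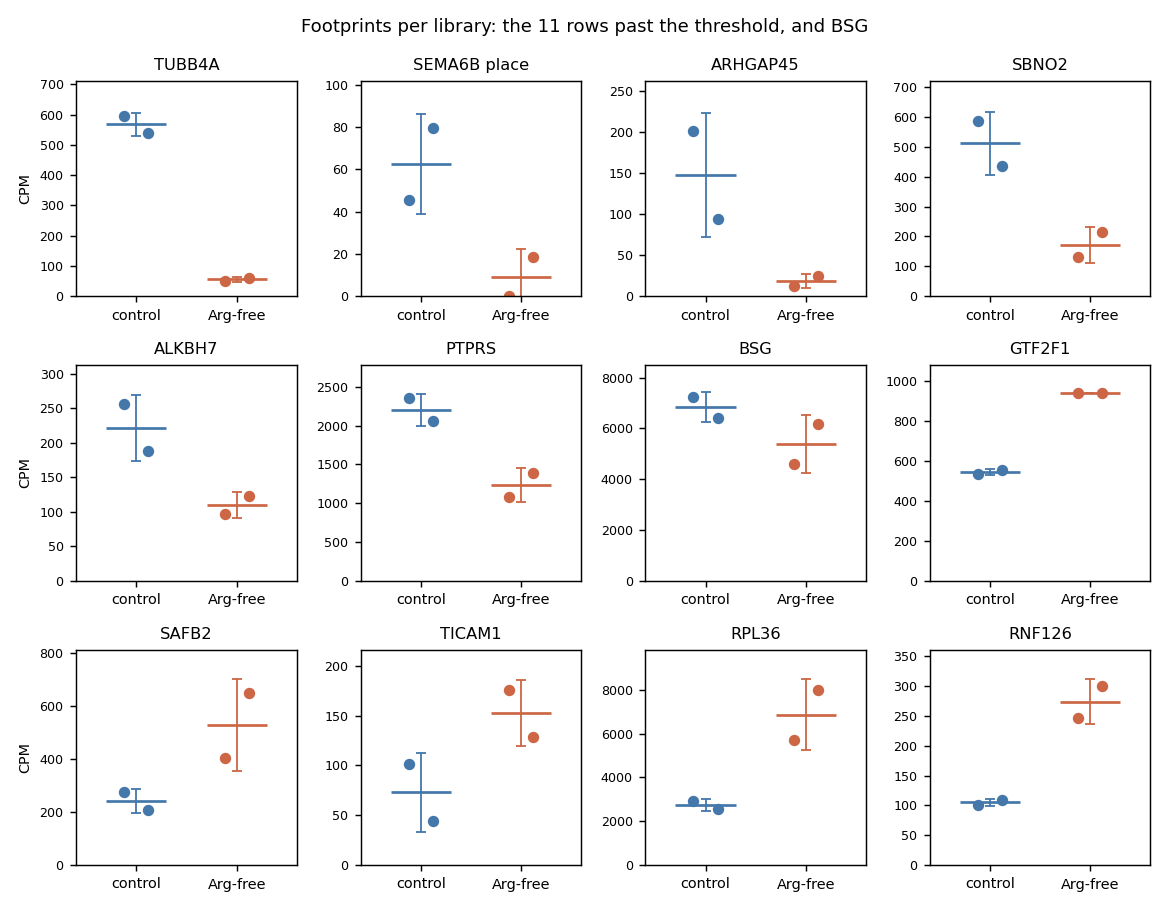
Footprints in CPM in each library (points) for the 11 flank rows past the threshold and for BSG, with the group mean (line) and SD (bar), n = 2 per group, each panel on its own axis from 0. TUBB4A falls from 595 and 540 to 50.2 and 61.4 CPM, RPL36 rises from 2937 and 2542 to 5726 and 8018 CPM, and the BSG groups lie closer together.

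BSG itself (chr19:571277-583494), with 4189 reads the most covered row, did not pass. It had 7246 and 6412 CPM in control and 4588 and 6187 CPM in arginine-free medium. The arginine-free libraries were both below the controls, arginine-free replicate 2 only just. The log2 fold change was -0.34 (SE 0.26, edgeR adjusted p = 0.348).

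Of the 8 tested genes of RNA binding, splicing and translation, SAFB2 and RPL36 rose, none fell and 6 did not pass, with a median log2 fold change of 0.31. PTBP1 had 2736 and 2532 CPM in control and 3110 and 3066 CPM in arginine-free medium, a small and even shift (log2 fold change 0.23, SE 0.23, edgeR adjusted p = 0.503). KHSRP, a factor of mRNA decay and splicing, stood at -0.20 (SE 0.23). Of the 7 tested genes of the transcription machinery, GTF2F1 rose, SBNO2 fell and 5 did not pass. POLR2E, a subunit shared by all 3 nuclear RNA polymerases, stood at 0.29 (SE 0.22), MED16, of the Mediator complex, at -0.52 (SE 0.26), and POLRMT, the polymerase of mitochondria, at -0.22 (SE 0.24).

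None of the 6 tested chromatin genes passed with edgeR or DESeq2, 1 (HDGFL2) had an unadjusted p under 0.05, and their log2 fold changes ran from -0.60 to 0.67. UHRF1, which guides maintenance DNA methylation in dividing cells, had 101 and 99.1 CPM in control and 159 and 160 CPM in arginine-free medium. Its groups were tight and apart, but on 95 reads it did not pass, at 0.67 on the log2 scale (SE 0.35, edgeR adjusted p = 0.167). HDGFL2, a reader of histone methylation, stood at -0.60 (SE 0.28), MLLT1, of the super elongation complex, at 0.03 (SE 0.23), KDM4B, a histone demethylase, at -0.18 (SE 0.31), and MIER2, a corepressor subunit, at 0.46 (SE 0.36).

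Among the 9 tested mitochondrial proteins ALKBH7 fell and 8 did not pass, with a median of -0.31. LONP1, the main protease of the matrix, had 1199 and 1080 CPM in control and 933 and 1124 CPM in arginine-free medium, overlapping groups with a log2 fold change of -0.15 (SE 0.22). CLPP, the other matrix protease, stood at -0.36 (SE 0.25), and MICOS13 at -0.31 (SE 0.24). NDUFA11, an accessory subunit of complex I, stood at 0.50 (SE 0.25, edgeR adjusted p = 0.15) and passed without arginine-free replicate 1 (adjusted p = 0.00355). GPX4, the selenoprotein that removes lipid peroxides and holds off ferroptosis, had 430 and 372 CPM in control and 180 and 338 CPM in arginine-free medium. Arginine-free replicate 1 was much the lower, and at -0.65 on the log2 scale (SE 0.30, edgeR adjusted p = 0.112) the row did not pass with all libraries but did without arginine-free replicate 2 (adjusted p = 0.0416).

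Of the 7 tested genes of ubiquitin handling, protein quality control and peptidases, RNF126 rose and 6 did not pass. DPP9, a cytosolic dipeptidyl peptidase that restrains the NLRP1 inflammasome, stood at 0.21 (SE 0.25), and TMEM259, of the endoplasmic reticulum, at 0.04 (SE 0.28). The lipid list had 3 tested genes of 11 in the flanks, and none passed with edgeR or DESeq2, with 1 (GPX4) at an unadjusted p under 0.05. PLIN3, a coat protein of lipid droplets, had 677 and 476 CPM in control and 377 and 448 CPM in arginine-free medium (log2 fold change -0.47, SE 0.25, edgeR adjusted p = 0.171), PLPP2, a lipid phosphatase, stood at -0.19 (SE 0.25), and PLIN4 was at 0 and PLIN5 at 3 reads.

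Of the 8 tested signalling genes TICAM1 rose, ARHGAP45 and PTPRS fell and 5 did not pass. INSR, the insulin receptor, had 128 and 208 CPM in control and 159 and 221 CPM in arginine-free medium. The groups overlapped, and the log2 fold change was 0.10 (SE 0.34). STK11, the kinase upstream of AMPK, had 45.7 and 49.6 CPM against 16.7 and 55.3 CPM, at a log2 fold change of -0.52 (SE 0.65), so a change of that size was not detectable at this depth. RANBP3, a cofactor of nuclear export, stood at -0.09 (SE 0.28), and TRIP10, which bends membranes downstream of Cdc42, at 0.32 (SE 0.29).

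Of the 3 tested membrane proteins and the 4 tested secreted proteins and ligands none passed with edgeR or DESeq2, and 0 had an unadjusted p under 0.05. SEMA6B was also on the membrane list, but the row that overlaps it took no symbol and is not counted here. That row fell with edgeR (log2 fold change -3.00, adjusted p = 0.0112), as described above. GPR108, a membrane protein used by viral vectors on their way into cells, stood at 0.23 (SE 0.31). MYDGF had 860 and 704 CPM in control and 825 and 1069 CPM in arginine-free medium (log2 fold change 0.28, SE 0.23). The costimulatory ligands TNFSF9 and CD70 stood at -0.58 (SE 0.30, edgeR adjusted p = 0.157) and -0.24 (SE 0.29), and FSTL3, which binds activins, had 24 reads in all. The complement gene C3 had 6 and 9 reads in control and 0 and 1 in arginine-free medium, under the minimum for the test. Of the 4 tested cytoskeletal genes TUBB4A fell and 3 did not pass. CNN2, an actin-binding calponin, had 393 and 292 CPM in control and 159 and 264 CPM in arginine-free medium, groups that did not overlap (log2 fold change -0.70, SE 0.31, edgeR adjusted p = 0.0978). TPGS1, of the tubulin polyglutamylase complex, stood at 0.65 (SE 0.50).

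The remaining 10 tested rows did not pass. Of the 244 rows, 38 had 1 to 19 reads and 153 had none, among them all 10 miRNA rows. Of the 53 tested rows, 40 overlapped another row of the flanks, 34 of them on the opposite strand. Overlap was taken from the start to the end of a row, introns included. Reads on exons of several genes were not counted, and other reads in such overlaps were assigned without strand.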

How the data were processed

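The authors' deposited table holds raw counts per gene, made with featureCounts 2.0.1 over exons of the GENCODE 47 basic annotation, with the option for paired reads, none for strand and none to count reads on exons of several genes, per the file headers. Reads were 75-base single reads without ribosomal RNA depletion, per the labels' protocols. GRCh37, hg19, TopHat2, Bowtie2 2.5.2 and cutadapt are listed in the submitters' processing notes.

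Rows took RefSeq symbols (GRCh38.p14) by place, as mutual best matches with overlap over union of at least 0.5 (an end shared) or 0.75. A longer row sharing an end with 1 unclaimed gene took its symbol if it covered a share of at least 0.9, as for RPL36 and STK11. This named 137 of 244 rows. The test was edgeR 4.0.16 (R 4.3.3) with TMM factors on all 3334 rows with 20 or more reads. Each SE was derived from the F statistic. The code was also run on simulated counts with the same spread for every row. That run was a check of the code alone, and its outcome is not given here. DESeq2 1.42.0, Python 3.11.15 and pandas 2.3.3 were also used. Depth was 105004 to 234766 reads per library; reads carry no molecular identifiers, so the limit of 3 reads covers counting error only.

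Named genes are, among protein-coding rows, the 10 highest and 10 lowest called with 100 or more reads and groups apart, then BSG, GPX4, STK11, INSR, RPL36, UHRF1, LONP1 and PTBP1, and up to 4 tested members with the most reads per role list. Others are marked. Members, lists and tests were chosen with earlier results of these data known. The arginine content of proteins, a planned description, was not analysed here.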

Additional observations from a re-analysis of the deposited data

How the results depend on the processing

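Leaving out a library leaves 1 in its group, assumed to vary like the other group, and 48 to 50 of the 53 flank rows then still held 20 reads. Calls in the flanks, 5 higher and 6 lower, ranged from 0 to 6 higher and from 1 to 5 lower when 1 library was left out. DESeq2 called 1 higher, and the replicate block 2 higher and 3 lower. The numbers in the titles are not said to pair libraries, and same-numbered deviations had r = -0.0895 over 1459 rows. The median log2 fold change of the flanks ranged from -0.20 to 0.11 without 1 library. Of all tested rows 434 were higher and 457 lower. Without 1 library these ranged from 140 to 437 and from 190 to 407, DESeq2 called 181 and 184, and the replicate block 263 and 298. RLE factors, upper-quartile factors and nuclear rows alone left the same 5 and 6 flank rows called. Of 498 values for 43 named rows, 444 kept direction and side, 35 no longer passed, 3 newly passed and 16 reversed, none of the reversed past the threshold. Of these 16 log2 fold changes, those with 1 library left out lay in STK11 (-0.59 to 0.22), INSR (-0.18 to 0.50), LONP1 (-0.27 to 0.01), POLRMT (-0.44 to 0.04), MLLT1 (-0.09 to 0.13), MIER2 (-0.05 to 0.82), TMEM259 (-0.13 to 0.20), RANBP3 (-0.42 to 0.14), GPR108 (-0.19 to 0.55) and TPGS1 (-0.06 to 1.29), the lowest and highest values. STK11 was tested only without control replicate 1 or arginine-free replicate 1, and each of the other genes in this list without each of the 4 libraries in turn. With 50 or more reads MLLT1 was at -0.02 and TMEM259 at -0.01, and with no row filter RANBP3 was at 0.01. The cause was not tested.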
